A study of Mus musculus with 8 samples.

Results

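The genes of threonine, serine and folate one-carbon metabolism were read in induced pluripotent stem (iPS) cells of the mouse, in clones derived with and without ascorbic acid (vitamin C). The list names 10 genes: Tdh, Gcat, Shmt1, Shmt2, Mthfd1, Mthfd2, Mthfd1l, Gldc, Mat2a and Ahcy. Members are the probe sets annotated to exactly 1 of these symbols, and 16 of the 45101 probe sets on the array met that rule, for 7 of the 10 genes. Tdh and Mat2a were not analysed here, because no probe set carries their symbol in the annotation used. Gcat has 3 probe sets, each annotated to Galr3 as well, so they were left out. The genes were named for their roles, but with results of the same comparison known. The differences between groups are therefore given as a description, and nothing is supported with them.

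The 8 clones were grown from fibroblasts of reprogrammable Col-OKSM mouse embryos, in which doxycycline switches on Oct4, Sox2, Klf4 and c-Myc. In 4 clones ascorbic acid was in the medium during derivation and in the other 4 it was not. All clones shared serum medium with LIF, doxycycline and non-essential amino acids, a supplement that contains serine and glycine, and a layer of irradiated feeder fibroblasts that was reduced by preplating before RNA extraction. RNA of each clone was hybridised to 1 Affymetrix mouse 3'-IVT array. The labels call the clones biological replicates but do not say whether they came from separate embryos. P-values therefore cover only the spread between these clones, array noise included, and may not extend to other embryos.

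One-carbon metabolism moves single carbon units, carried on tetrahydrofolate, into nucleotides and, through methionine and S-adenosylmethionine, into methyl groups. Serine is the usual donor, and parallel sets of enzymes in mitochondria and cytosol release the carbon and pass it on, mainly as formate, between the compartments. Mouse embryonic stem cells are known to draw glycine and carbon units from threonine as well, through the mitochondrial enzymes Tdh and Gcat, and this supply is known to support S-adenosylmethionine and histone methylation in them.

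The sequences just upstream of Shmt1 and Shmt2 are shown because these genes encode the cytosolic and the mitochondrial form of the same enzyme, and the only member probe set past the test threshold belongs to Shmt1. They are the 250 bases before each annotated start, 5′ to 3′ on the gene's strand, from RefSeq on build GRCm38.p6, where a promoter was listed for 9 of the 10 genes. Both genes lie on the minus strand, Shmt1 at chr11:60811266-60811515 and Shmt2 at chr10:127522445-127522694.
Shmt1: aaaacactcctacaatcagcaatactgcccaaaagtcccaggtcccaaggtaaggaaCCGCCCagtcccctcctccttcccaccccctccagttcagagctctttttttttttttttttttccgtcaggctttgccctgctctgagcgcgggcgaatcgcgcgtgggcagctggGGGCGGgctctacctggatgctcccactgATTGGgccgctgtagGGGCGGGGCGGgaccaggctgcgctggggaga
Shmt2: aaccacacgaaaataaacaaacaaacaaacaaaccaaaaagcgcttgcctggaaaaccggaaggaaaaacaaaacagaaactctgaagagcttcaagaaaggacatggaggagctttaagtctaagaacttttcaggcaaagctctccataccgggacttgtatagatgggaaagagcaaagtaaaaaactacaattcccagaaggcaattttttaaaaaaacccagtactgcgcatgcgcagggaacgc
Capitals mark matches, on either strand, to the CCAAT box, the GC box GGGCGG, the E-box CACGTG or the letters TGATGNAA, a core of the element bound by the amino acid stress factor ATF4. The Shmt1 sequence holds 4 matches to the GC box, a pair of which overlap, and 1 to the CCAAT box, while the Shmt2 sequence holds 0 matches to any of these letters. Of the other members listed, Mthfd1, Gldc and Ahcy each hold 1 match to the CCAAT box and 1 to the GC box. Mat2a holds 1 and 3, Mthfd2 holds 3 and 0, and Gcat and Mthfd1l hold 0 and 1. Of all 32851 promoters in the table, 33.8% hold the CCAAT box, 32.7% the GC box, 6.02% the E-box and 3.45% the ATF4 core in the same window. No binding or methylation was measured here, so the matches only describe the sequences.

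Across the 7 genes the levels with and without ascorbic acid lay close together. On the brightest probe set of each gene 3 were higher and 4 lower with ascorbic acid, with a median log2 difference of -0.02, beside a median of -0.0042 and 51.4% lower over all 13125 tested genes. None passed the test over all genes (limma, Benjamini-Hochberg adjusted p at least 0.844, threshold 0.05) and 0 had an unadjusted p under 0.05. Over all tested genes 0.0229% passed and 5.83% had an unadjusted p under 0.05. Read probe set by probe set, 9 of 16 were lower with ascorbic acid, against 53.4% of all 27022 tested probe sets. Of the 16, 1 passed, a Shmt1 probe set that was lower. Over all tested probe sets 0.0481% passed, with 0.0444% (12) higher and 0.0037% (1) lower, and that 1 lower is the same Shmt1 probe set. Signals are linear array units, and differences are with minus without ascorbic acid on the log2(signal + 16) scale. All 16 probe sets lay above the limit for dim probe sets.

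**Figure D1:**
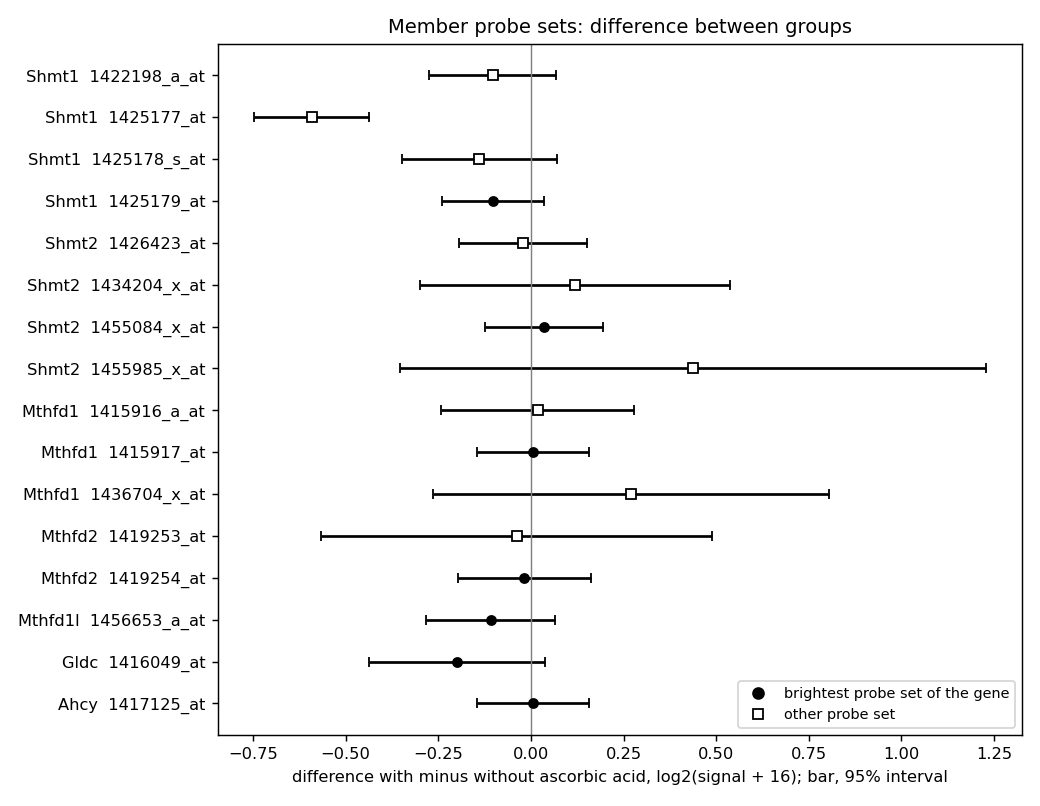
Difference between groups for each of the 16 member probe sets, as log2(signal + 16) with minus without ascorbic acid, with 95% limma intervals and 4 clones per group. Filled circles are the brightest probe set of a gene, and the 1425177_at probe set of Shmt1, at -0.59, is the 1 whose interval lies wholly on one side of 0.

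Shmt1 encodes the cytosolic serine hydroxymethyltransferase, which moves a carbon from serine to tetrahydrofolate and leaves glycine. Its probe set 1425177_at read 881, 951, 881 and 855 in the clones with ascorbic acid, against 1484, 1257, 1373 and 1303 in the clones without. The groups did not overlap, which held for 1 of the 16 member probe sets and for 3.4% of all tested probe sets. Mean signals were 892 ± 41.4 with ascorbic acid and 1354 ± 99.1 without it (SD, n = 4 each). Its log2 difference was -0.59 ± 0.071 (SE; 95% interval -0.75 to -0.44), or 0.663-fold, with a limma adjusted p of 0.00611 over all probe sets. Only 0.999% of the tested probe sets had a larger difference in either direction. The call was lost under median centring of the arrays (-0.56, limma adjusted p = 0.102) and in eBayes without the intensity trend (adjusted p = 0.0981). It was also lost with the clone number as a replicate block (limma adjusted p = 0.0976). The call held without each single clone, with limma adjusted p of 0.00970 to 0.0369.

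The other 3 Shmt1 probe sets were also lower on average with ascorbic acid, but by far less, and their groups overlapped. The brightest, 1425179_at, read 2054, 2124, 2154 and 1914 with ascorbic acid, against 2318, 2295, 2186 and 2056 without. Its log2 difference was -0.10 ± 0.063 (SE; 95% interval -0.24 to 0.036; limma adjusted p = 0.882). Only the lowest clone without ascorbic acid fell inside the range of the other group.

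Probe set 1422198_a_at, of a class that reads several transcripts of 1 gene, had signals of 1146, 1295, 1055 and 1113 with ascorbic acid and of 1292, 1224, 1122 and 1314 without, a log2 difference of -0.10 ± 0.079 (SE). Probe set 1425178_s_at, of a class that can read transcripts of several genes, had signals of 779, 643, 613 and 616 with ascorbic acid and of 811, 740, 658 and 711 without, a difference of -0.14 ± 0.096 (SE). In both, clones of the 2 groups were interleaved. Per the array annotation, 1425177_at, 1425178_s_at and 1425179_at were designed from the same sequence record, so the probe set that differed most shares its source with 2 that differed little. Which part of that record each of them reads was not examined.

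The mean log2 signal of the other 3 probe sets was 10.20 ± 0.079 with and 10.32 ± 0.080 without (SD, n = 4 each), a difference of -0.11. Averaged over its probe sets, Shmt1 was at -0.23 in the fit over all genes, with a limma adjusted p of 0.618.

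**Figure D2:**
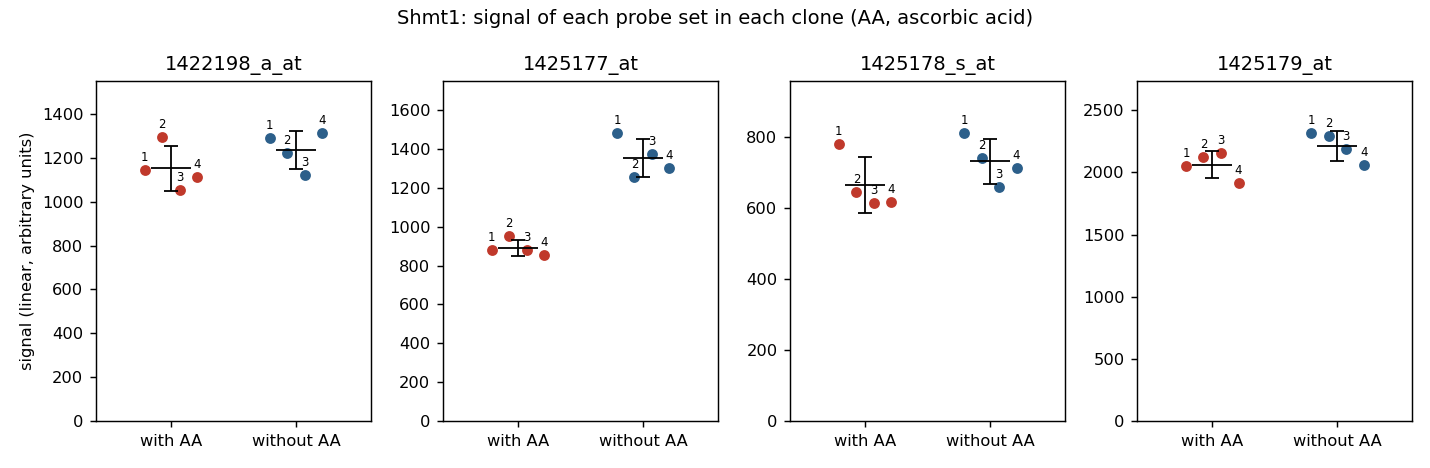
Signal of the 4 Shmt1 probe sets in each clone, on linear axes from 0. Points are clones, numbered as in the labels, and bars are the mean and SD of 4 clones. In 1425177_at the clones with ascorbic acid lie at 855 to 951 and those without at 1257 to 1484, while in the other 3 panels the groups overlap.

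Shmt2 encodes the mitochondrial serine hydroxymethyltransferase. Its brightest probe set, 1455084_x_at, read 3120, 3685, 3519 and 3023 with ascorbic acid, against 3430, 3057, 3223 and 3276 without. The log2 difference was 0.036 ± 0.073 (SE; 95% interval -0.12 to 0.19), and the clones with ascorbic acid spanned the whole range of the others. Probe set 1426423_at, the only one of the 4 that is not of the _x_at class, which can read related transcripts, had signals of 2387, 2695, 2739 and 2202 with and of 2617, 2304, 2620 and 2616 without ascorbic acid. It was at -0.023 ± 0.079 (SE), so the brighter pair of probe sets lay close to 0 on opposite sides of it.

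The 2 dimmer Shmt2 probe sets varied more between clones than most on the array. Probe set 1455985_x_at read 431, 337, 308 and 305 with ascorbic acid, against 82.2, 395, 336 and 328 without, and only 1.24% of tested probe sets had a larger residual SD. Its log2 difference of 0.44 ± 0.36 (SE) rests on clone 1 without ascorbic acid, and without that clone it was -0.040. Probe set 1434204_x_at read 354, 310, 355 and 220 with ascorbic acid, against 250, 410, 248 and 239 without, a difference of 0.12 ± 0.19 (SE), and 12.5% of tested probe sets had a larger residual SD. Here clone 2 without ascorbic acid stood above all 7 others.

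Mthfd1 encodes the cytosolic enzyme that interconverts formyl-, methenyl- and methylene-tetrahydrofolate. Probe set 1415917_at read 5921, 6505, 6298 and 6683 with ascorbic acid, against 6128, 5855, 6365 and 6983 without, a log2 difference of 0.0059 ± 0.069 (SE; 95% interval -0.14 to 0.16). The groups overlapped almost fully. Probe set 1415916_a_at read 4859, 6724, 6927 and 5886 with ascorbic acid, against 6037, 4908, 6734 and 6355 without, with a difference of 0.018 ± 0.12 (SE). Its lowest values were those of clone 1 with and clone 2 without ascorbic acid. Probe set 1436704_x_at read 1798, 691, 1248 and 864 with ascorbic acid, against 777, 1157, 722 and 968 without, a difference of 0.27 ± 0.25 (SE), and there the same clone 1 was the highest of all 8 and clone 2 the highest of its group. Without that clone 1 the difference was 0.026.

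Mthfd2 encodes the mitochondrial methylene-tetrahydrofolate dehydrogenase and cyclohydrolase, an enzyme that is abundant in embryonic and proliferating cells. Its brightest probe set, 1419254_at, read 1579, 1843, 1509 and 1553 with ascorbic acid, against 1727, 1609, 1774 and 1457 without. The log2 difference was -0.018 ± 0.082 (SE; 95% interval -0.20 to 0.16), and the groups were interleaved. Probe set 1419253_at, designed from the same record, read 1907, 1047, 897 and 882 with ascorbic acid, against 1055, 1607, 808 and 1286 without. Its difference of -0.039 ± 0.24 (SE) was as small, but its spread was larger than that of most probe sets (4.50% had a larger residual SD). Clone 1 with and clone 2 without ascorbic acid were again its highest clones, and the difference was -0.29 without the first of these and 0.12 without the second.

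These clones were also low on an array-wide measure, though not alone in that. The 100 brightest probe sets held 6.08% of all signal in clone 1 with ascorbic acid, the lowest share of the 8 arrays, and 6.61% in clone 2 without, the lowest of its group. Clone 4 with ascorbic acid had 6.40%, below that clone 2, but was not high on either probe set, at 864 on 1436704_x_at and 882 on 1419253_at. Over all clones the share ranged over 6.08% to 7.80% with, against 6.61% to 8.37% without. The part of this measure in the Mthfd1 and Mthfd2 values was not tested.

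**Figure D3:**
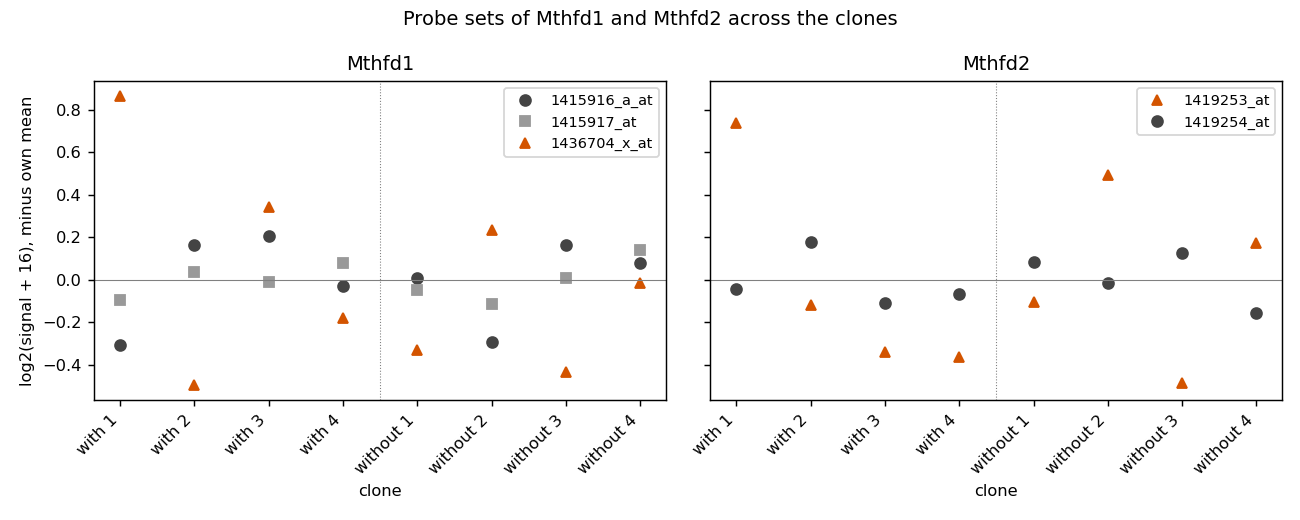
The 3 Mthfd1 and 2 Mthfd2 probe sets in each of the 8 clones, as log2(signal + 16) minus the probe set's own mean over the clones. The triangles, 1436704_x_at and 1419253_at, are highest in clone 1 with ascorbic acid and, among the clones without, in clone 2. Their residual SDs on the log2 scale were 0.47 each, against 0.093 to 0.22 for the other probe sets.

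Mthfd1l encodes the mitochondrial formyl-tetrahydrofolate synthetase, which releases formate for the cytosol. Its 1 probe set, 1456653_a_at, read 2134, 2040, 1980 and 1630 with ascorbic acid, against 2133, 2131, 2045 and 2047 without. The log2 difference was -0.11 ± 0.080 (SE; 95% interval -0.28 to 0.065), and it was -0.027 without clone 4 with ascorbic acid, which lay well below the other 7.

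Gldc encodes glycine decarboxylase, the pyridoxal phosphate subunit of the mitochondrial glycine cleavage system, which takes a further carbon unit from glycine. It read 2082, 1925, 1797 and 1540 with ascorbic acid, against 2272, 2454, 1889 and 1841 without. Mean signals were 1836 ± 229 with and 2114 ± 298 without (SD, n = 4 each). The log2 difference was -0.20 ± 0.11 (SE; 95% interval -0.44 to 0.038; limma adjusted p = 0.882 over all probe sets). It was -0.12 without clone 4 with ascorbic acid and -0.13 without clone 2 of the other group. The groups overlapped, although the lowest clone was one with ascorbic acid and the highest was one without.

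Ahcy encodes adenosylhomocysteine hydrolase, which clears the product that methyltransferases leave and that inhibits them. It read 7316, 8457, 8904 and 8370 with ascorbic acid, against 8074, 8218, 8012 and 8551 without, a log2 difference of 0.0051 ± 0.069 (SE; 95% interval -0.15 to 0.16). The interval allows a change of no more than 0.16 on the log2 scale either way, and the clones with ascorbic acid held both the lowest and the highest value.

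**Figure D4:**
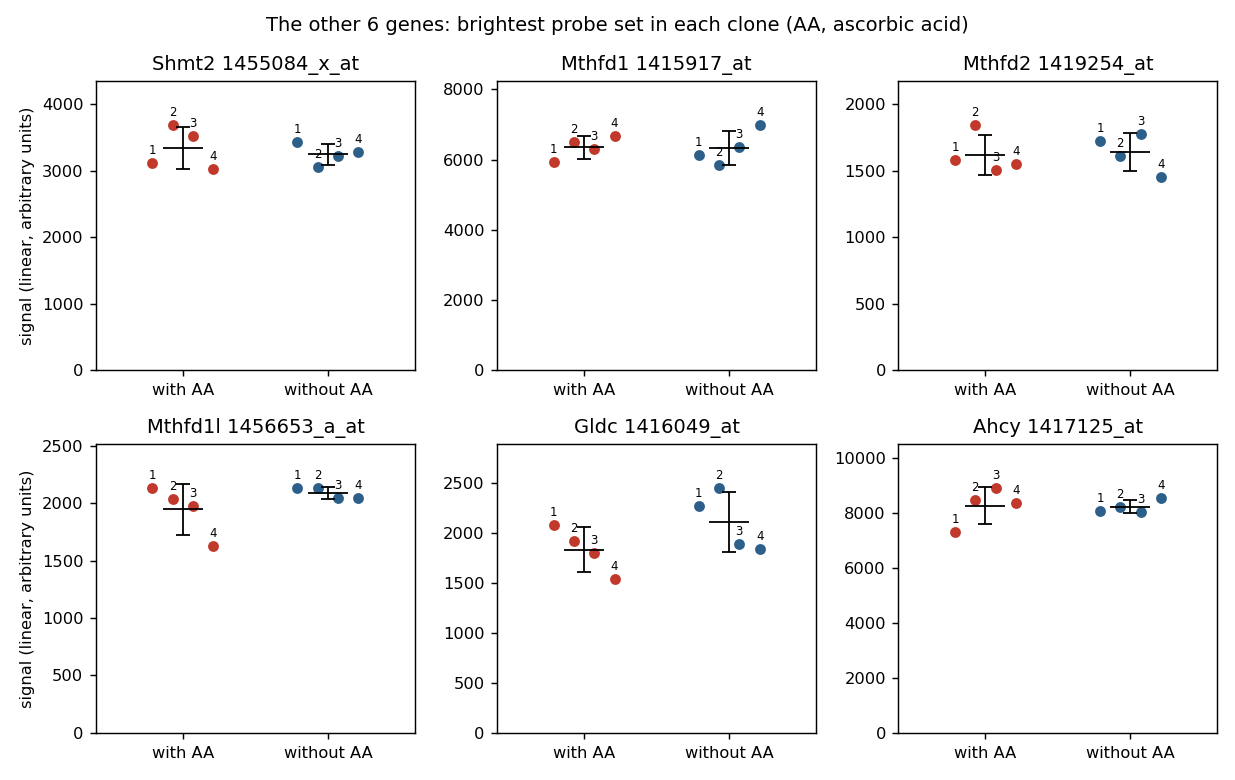
Signal on the brightest probe set of the other 6 genes in each clone, on linear axes from 0. Points are clones, numbered as in the labels, and bars are the mean and SD of 4 clones. The groups overlap in all 6 panels, and clone 4 with ascorbic acid is the lowest for Shmt2, Mthfd1l and Gldc.

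The genes were also compared in pairs, on the brightest probe set of each, for how they varied from clone to clone. Probe sets of the same gene did not always vary together. The brightest of Shmt2 had r = 0.88 with 1426423_at, 0.052 with 1434204_x_at and -0.33 with 1455985_x_at. Of the 21 pairs of the 7 genes, 12 had a positive Pearson correlation over the 8 clones, and the range was -0.76 for Mthfd1 and Gldc to 0.84 for Shmt1 and Gldc. The pair Mthfd1l and Gldc had r = 0.83 (exact permutation p = 0.000893, Benjamini-Hochberg 0.0187 over the 21 pairs) and rho = 0.81 (exact permutation p = 0.0218, adjusted 0.386). It was the 1 pair past the threshold, by Pearson's r only, in a set of pairs added after the data were seen. Its r was 0.93 without the 2 clones farthest from the Mthfd1l median and 0.78 after the group means were removed. Shmt2 and Mthfd2, consecutive enzymes in mitochondria, had r = 0.41 (exact two-sided permutation p = 0.311) and rho = 0.24 (exact permutation p = 0.582), and r = 0.34 without the 2 clones farthest from the Shmt2 median. All points of a pair share an array and its scaling, and under median centring r of Shmt2 and Mthfd2 was 0.71 (exact permutation p = 0.0406). Outside the list, Macrod2 (r = 0.93), Pdpk1 (r = 0.93) and Ttc12 (r = 0.92) were the tested genes most like Mthfd2 over the 8 clones. They were picked as the highest of 13118 over only 8 clones and were not tested, so no link to Mthfd2 is read from them. The Mthfd2 values are those of 1419254_at, which had r = -0.27 with 1419253_at, the other Mthfd2 probe set.

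The other genes of the pathway, grouped by role, were close to 0 too. Of 55 such genes 38 were tested, 22 higher and 16 lower with ascorbic acid, with a median log2 difference of 0.012, a range of -0.17 to 0.27 and 0 past the threshold (limma). An unadjusted p under 0.05 was found for 1 of them, Adk, the kinase that clears adenosine and so helps the Ahcy reaction forward. Adk read 3960, 3282, 3511 and 4091 with ascorbic acid, against 3184, 2867, 3503 and 3126 without. Its log2 difference was 0.22 ± 0.082 (SE; limma adjusted p = 0.767), and the groups overlapped.

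All 3 genes of serine synthesis were near 0, among them Psph, the last enzyme (0.078 ± 0.063, SE), and Phgdh, the first (0.024 ± 0.070). Of 3 tested genes of threonine and glycine breakdown 2 were higher and 1 lower, with Dld at 0.038 and Gcsh, the carrier of the glycine cleavage system, at 0.026. Among 8 amino acid transporters 3 were higher and 5 lower, with the glutamine carrier Slc1a5 at -0.13 and Slc38a2 at 0.087. Among 7 genes of folate uptake and storage 3 were higher and 4 lower, with the mitochondrial carrier Slc25a32 at 0.14 and the folate receptor Folr2 at -0.17. These are log2 differences, and none of these genes passed the test.

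Of 4 tested genes of folate interconversion 3 were higher and 1 lower. Mitochondrial Aldh1l2, which oxidises formyl-tetrahydrofolate, was at 0.27 ± 0.16 (SE), from signals of 228 ± 26.3 in clones with and 188 ± 39.3 in clones without it (SD, n = 4 each), and Mthfd2l, a mitochondrial relative of Mthfd2, was at 0.19 ± 0.15 (SE). In purine synthesis Gart was at -0.071 and Atic at 0.015. Of 8 genes of the methionine cycle and transsulfuration 5 were higher and 3 lower, with methionine synthase, Mtr, at 0.063. Of 3 genes that use or salvage S-adenosylmethionine in polyamine synthesis 2 were higher and 1 lower, with Srm at -0.031 and Odc1 at 0.0096. The largest of these differences, 0.27, compares with -0.10 for Shmt1 on the same measure, the brightest probe set of each gene. The -0.59 of 1425177_at comes from a Shmt1 probe set that is not the brightest, and such probe sets were not read for the other genes of the pathway.

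**Figure D5:**
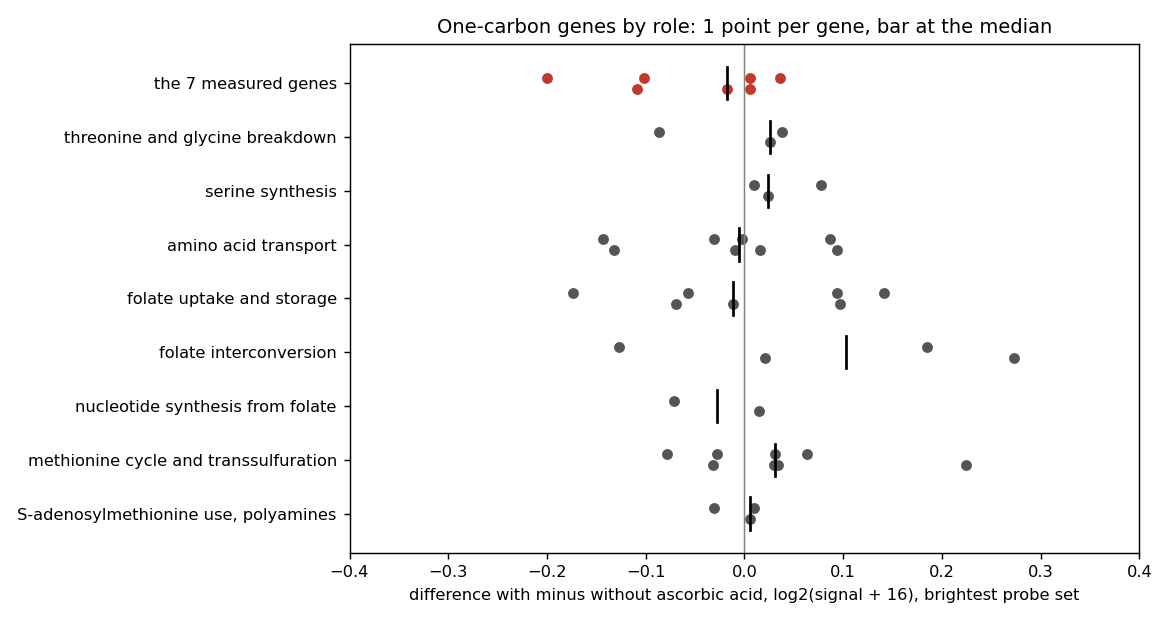
Difference between groups, as log2(signal + 16) with minus without ascorbic acid, for the 7 measured genes (top row) and the 38 other tested genes of the pathway by role. Each point is the brightest probe set of a gene, and black bars are medians. All points lie between -0.20 and 0.27.

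The arrays resembled each other, with medians of 134 to 156 with and 144 to 153 without ascorbic acid and pairwise correlations of log2 signal from 0.970 to 0.977. RNA integrity, read as actin signal at the 3' end over the 5' end, gave 1.22 to 1.28 with and 1.14 to 1.26 without ascorbic acid. The pluripotency factors that define iPS cells were bright in both groups. Pou5f1 read 10295 ± 948 with and 11283 ± 292 without, Nanog 8948 ± 891 with and 9709 ± 294 without, and Sox2 14333 ± 529 with and 15002 ± 335 without (SD, n = 4 each). Pou5f1 (Oct4) and Sox2 are also among the factors that doxycycline switches on in these cells. Whether their signals include the doxycycline-driven transcripts was not tested. Of 12 pluripotency markers 1 was higher and 11 lower with ascorbic acid, beside 51.4% lower over all tested genes. The markers had a median log2 difference of -0.099 and 0 passed the limma threshold. An unadjusted p under 0.05 was found for 1, Tfcp2l1 at -0.35, beside 5.83% over all tested genes. The summed signal of these 12 markers spanned 87637 to 104641 with, against 97674 to 109769 without. Fibroblast collagens were present as well, with Col1a1 at 2628 ± 660 with and 3216 ± 241 without, Col1a2 at 3744 ± 707 with and 4583 ± 463 without, and Col3a1 at 1261 ± 202 with and 1605 ± 317 without (SD, n = 4 each). Of 17 tested fibroblast and feeder markers 13 were lower and 4 higher in the clones with ascorbic acid, and their summed signal spanned 19506 to 26075 with, against 22752 to 27369 without. None of these markers passed the limma test, and 6 of the 17 had an unadjusted p under 0.05, beside 5.83% over all tested genes. Of the 6, Twist1, at 0.52 the largest difference of the list, was higher and the others were lower. The part of either marker list in the Shmt1 values was not tested. In such bulk RNA, fewer cells of a type and less RNA per cell cannot be told apart.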

How the data were processed

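The authors deposited a linear signal intensity for each probe set, with 1 column per clone, and all 8 columns were matched by the labels. GCOS, Affymetrix's software, is named in the submitters' processing notes, with no version or settings. From the values, the authors had scaled each array to a common trimmed mean (2% off each end). That scaling was kept, since array medians spanned 0.199 log2, just inside the limit of 0.2 set for it. Past that limit the arrays would have been median centred. Under that setting the call of Shmt1 1425177_at was lost (limma adjusted p = 0.102). Signals were transformed as log2(signal + 16), which understates differences of dim probe sets. Array controls (64 probe sets) and the dimmest 40% of probe sets (mean signal under about 93.7) were left out. In GEO's platform annotation 34945 probe sets carry 1 symbol, 932 several and 9160 none, and 99.4% of the single symbols matched RefSeq, with 0 renamed.

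Groups were compared with lmFit and trended eBayes in limma 3.58.1 (R 4.3.3), two-sided. P-values were adjusted by Benjamini-Hochberg over 13125 genes (brightest probe set) or, for single probe sets, over 27022 probe sets. The fit was tested on simulated data. Correlations used exact two-sided permutation of the clones. Of 3 pairs planned only Shmt2 and Mthfd2 could be computed, and the 21 pairs and the mean of 3 Shmt1 probe sets were added after seeing the data. Members and lists were chosen with earlier results of these data known. Named are all members, the 2 genes of each pathway list with the smallest p, 3 pluripotency and 3 collagen genes, and the 3 genes most like Mthfd2. Alternatives were other scalings, pseudocounts, dim filters, probe set choices and variance models, the clone number as a block, and leaving out each clone. The number of arrays limits the precision. Figures were drawn with matplotlib 3.10.9.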

Additional observations from a re-analysis of the deposited data

Results flagged for a closer look

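In 4 of 64 groups of 4 clones (6.25%) a single clone lay far outside the others, and chance alone flags about 5%. In Shmt2 1426423_at, clone 2 without ascorbic acid read 2304, against 2616 to 2620 in the other clones of its group. That value lay inside the range of the clones with ascorbic acid, 2202 to 2739. In Shmt2 1434204_x_at the same clone read 410, against 239 to 250, so it was low on one probe set of the gene and high on another. In Mthfd2 1419253_at, clone 1 with ascorbic acid read 1907, against 882 to 1047. In Slc1a5, clone 2 with ascorbic acid read 1921, against 1566 to 1597. No explanation of these values was tested.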

How the results depend on the processing

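The number of member genes past the threshold was 0 under all 20 alternatives, and leaving out single clones gave 0 in each case. The number of member probe sets past the threshold was 1 as reported and 0 under median centring, in eBayes without the trend and with the clone number as a replicate block (adjusted p of Shmt1 1425177_at 0.102, 0.0981 and 0.0976 in limma). It was 1 under the other alternatives run, and 1 without any single clone. The log2 difference of that probe set was -0.63 to -0.55 in all 18. The labels do not say whether clones that share a number share anything else. Their deviations from the group means correlated at -0.15, -0.089, 0.016 and -0.021, which cannot settle that. The block changed no other member call.

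Genes past the threshold over all tested genes numbered 3 as reported, 1 in eBayes without the trend, 1 with robust estimation, and 2 to 4 without single clones. The correlation of Shmt2 and Mthfd2 was 0.41 as reported, 0.71 under median centring (exact permutation p = 0.0406) and 0.0074 to 0.65 without single clones. Averaging all probe sets of each gene put Shmt1 at -0.23, Shmt2 at 0.14 and Mthfd1 at 0.098. Small differences changed sign under some of the 20 alternatives: Mthfd2 and Ahcy under 5 each, Mthfd1 under 4 and Shmt2 under 2. Shmt1, Mthfd1l and Gldc were lower under all 20. The cause was not tested.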
